A study of Mus musculus with 18 samples.

Results

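The genes described here were 10 members of the fibroblast growth factor (FGF) system with roles in hair growth, chosen by symbol: the secreted ligands Fgf5, Fgf18, Fgf22 and Fgf1, the intracellular family members Fgf11 and Fgf13, and the receptors Fgfr1, Fgfr2, Fgfr3 and Fgfr4. Each had 1 row among the 52636 genes of the count table. No measured value decides membership, but the genes were picked with earlier results of these data known. RNA-Seq had been done on epidermal cells sorted as EpCAM+ CD45- CD140a- CD31-, so that leukocytes, most fibroblasts and endothelium should have been removed, although whole skin is named as the source in the labels. All mice carried Zfp36 fl/fl, in which the gene for the mRNA-destabilizing protein tristetraprolin (TTP) is flanked by loxP sites, on a C57BL/6 background. The ΔK14 mice also carried Cre under the keratin 14 promoter, which is active in basal keratinocytes and in the epithelium of the hair follicle, while the fl/fl mice were littermates that kept the gene. Mice of 8 weeks of age were shaved and then either mock-treated (mock) or given the carcinogen DMBA followed by repeated doses of the tumor promoter TPA. From the latter, cells came from skin next to tumors (treated) or from papillomas (tumor). Treated cells are therefore from skin exposed to DMBA/TPA and not from tumors, whatever their label of treated tumoral keratinocytes. Each of the 6 groups had 3 columns, but mock ΔK14 replicates 2 and 3 were copies of each other over the whole table and entered as 1, which left 17 libraries. Nothing in the labels says whether replicates were separate mice, so the p-values measure only the spread between these libraries, which may be technical.

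Total counts ran from 2808550 in tumor fl/fl replicate 1, which also had the fewest genes detected (19219), to 9617985 in mock fl/fl replicate 3. Levels are given as CPM, counts scaled by library size with TMM factors, and 1 count was worth 0.102 to 0.476 CPM. Zfp36 ran from 152 to 698 CPM in the fl/fl libraries and was at most 37.7 CPM in the ΔK14 libraries, so that no ΔK14 library reached an fl/fl one. Some libraries stood apart from others of their group. Replicate 1 of mock skin in both genotypes held 2099 and 2051 summed CPM of 7 inner root sheath markers (Krt71 among them), against 13.6 to 16.2 in the other 3 mock libraries. Among fl/fl tumors, replicates 2 and 3 held 3411 and 6042 summed CPM of 4 sebaceous gland markers, nearly all of it Scd1, against 187 in replicate 1. Keratinocyte keratins were present throughout, with Krt14 at 603 to 14899 CPM. Ptprc, which defines leukocytes, was at 0 to 1.45 CPM. The 6 leukocyte markers found summed to 59.6 to 88.3 CPM in ΔK14 tumors against 16.9 to 31.4 in fl/fl tumors, and to 179.65 CPM in treated ΔK14 replicate 3 against 10.7 to 29.3 in the other skin libraries, nearly all of the excess being Cd74 (54.5 to 83.4 CPM in ΔK14 tumors and 177 CPM in that library). Fibroblast markers summed to 30.2 to 1637 CPM and were lower in tumors (30.2 to 387) than in mock skin (537 to 1637).

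FGF signals are read by receptor tyrosine kinases, FGFR1 to FGFR4, which bind the ligand together with heparan sulfate, pass the signal through the adaptor FRS2 to the RAS and MAP kinase pathway, and switch on their own inhibitors of the Sprouty and DUSP families. In the hair follicle, FGF5 is the signal that ends the growth phase (anagen), and mice and cats without it grow long hair. FGF18 comes from the bulge and keeps the follicle at rest (telogen), FGF22 is made by epidermis and inner root sheath, and FGF1 is a ligand that all FGF receptors can bind. FGF11 and FGF13 are not secreted and bind voltage-gated sodium channels in place of the receptors. In keratinocytes the main receptor is an isoform of FGFR2 that answers FGFs from the dermis, whereas FGFR1 is better known from mesenchyme and FGFR3 from suprabasal layers and seborrheic growths.

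Because TTP binds the AU-rich heptamer UAUUUAU in 3′ untranslated regions, the members were searched for its DNA form, TATTTAT, on the transcript strand, taking for every gene its longest 3′ untranslated region. It was present in 1 of the 10 members, Fgfr3, against 27.6% of 20999 protein-coding genes with untranslated regions of any length. The site is shown because Fgfr3 is the only member that holds the motif, with the heptamer in capitals. It begins at base 757 of a region of 1508 bases, and the stretch shown is chr5:33736307-33736333 on the plus strand of GRCm38, from the transcripts of GENCODE M21.
Fgfr3: tttgtaaagcTATTTATcaacccccag
The shorter core ATTTA was present 5 times in Fgfr3, 7 times in Fgfr2, 4 times in Fgf5 and not at all in Fgf18. A motif match is a description of the sequence and not evidence of binding.

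Averaged over libraries, the receptors other than Fgfr4 were more abundant per kilobase than the ligands, although Fgf5 was above Fgfr1 in mock replicate 1 of both genotypes and in treated fl/fl replicate 3, and Fgf22 was above Fgfr1 in fl/fl tumor replicate 1. Per kilobase of annotated exon, Fgfr2 averaged 22.9 CPM (SD 9.03, 17 libraries), Fgfr3 averaged 14.9 (SD 6.01), Fgfr1 averaged 5.55 (SD 1.98) and Fgfr4 averaged 0.203 (SD 0.436). Fgfr2 was above Fgfr3 in 17 of 17 libraries and Fgfr3 was above Fgfr1 in 15, the exceptions being fl/fl tumor replicates 2 and 3. Fgf22 was the steadiest of the ligands, at 2.05 CPM per kilobase (SD 0.694), while Fgf5 averaged 2.37 with an SD of 3.28 that exceeded its mean. Fgf13 (0.907, SD 0.893), Fgf18 (0.856, SD 0.494), Fgf11 (0.521, SD 0.408) and Fgf1 (0.469, SD 0.425) followed. These last 4 cannot be ordered, since their spreads overlap.

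Fgf5, the ligand that ends anagen, was the most variable of the ligands relative to its mean. The gene (ENSMUSG00000029337) lies at chr5:98254184-98277030 in GRCm38. In mock fl/fl skin it was at 21.0, 0 and 0 CPM, and in mock ΔK14 skin at 16.4 and 0 CPM. Treated fl/fl skin held 8.74, 10.1 and 23.5 CPM, and treated ΔK14 skin 14.1, 5.63 and 0.174 CPM. Mock skin was thus either high or at 0, with replicate 1 the high library in both genotypes. Treated skin held Fgf5 in every library, but in ΔK14 replicate 3 by 1 count only, too few to tell from 0. In fl/fl tumors Fgf5 was at 0, 0.157 and 0 CPM, a single count among 3 libraries, and in ΔK14 tumors at 0.891, 0 and 0 CPM, or 4 counts. A library at 0 allows up to 3 counts, which is 0.307 to 1.43 CPM in the libraries concerned, and this covers counting error only.

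**Figure D1:**
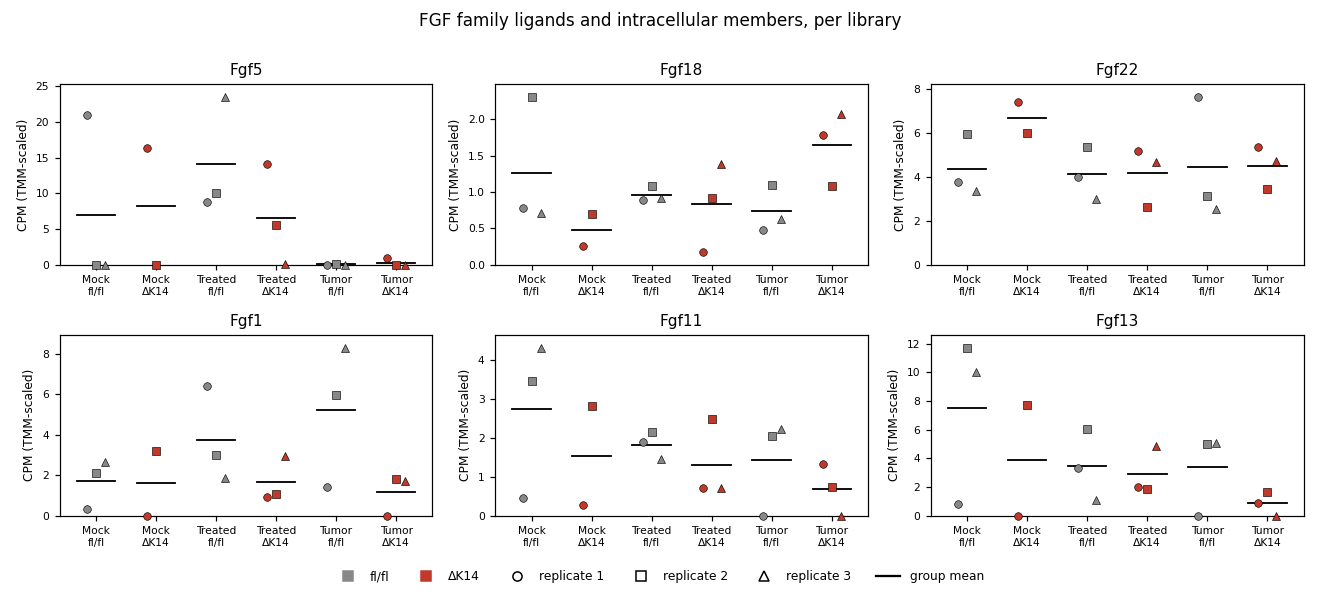
Levels of the 4 secreted ligands and the intracellular members Fgf11 and Fgf13 in each library, in CPM on TMM-scaled library sizes. Points are single libraries (gray fl/fl, red ΔK14, symbols by replicate number), lines are group means, and each panel has its own axis from 0. Fgf5 reaches 23.5 CPM in treated fl/fl skin and stays at or under 0.891 CPM in all 6 tumor libraries.

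Fgf5 was lower in fl/fl tumors than in treated fl/fl skin (log2 fold change -7.08, SE 0.85, adjusted p = 0.00243, edgeR's quasi-likelihood test). Every tumor library lay under every treated library. With 1 count in tumors, Fgf5 passed the count filter through the treated libraries alone, so only a fall could be tested here. By summed counts, 305 against 1, scaled by total counts without TMM factors, treated skin was 228 times higher. The 95% counting interval was 40.7 to 9053. The call did not rest on 1 library, since it held on leaving out each of the 6 in turn, but in a single fit of all 17 libraries the adjusted p was 0.0648. In ΔK14 mice the same comparison had too few counts in most libraries to pass the filter on low counts, with 4 counts in tumors against 123 in treated skin and an overlap between treated replicate 3 (0.174 CPM) and tumor replicate 1 (0.891 CPM). Of the 7 alternatives that could test it there, 2 called it lower, namely no count filter (log2 fold change -4.55, edgeR adjusted p = 6.5e-12) and leaving out treated ΔK14 replicate 3 (-5.16, edgeR adjusted p = 0.00326). The other 5 did not, with DESeq2 at -4.54 (adjusted p = 0.121), the single fit at -4.51 (edgeR adjusted p = 0.13) and fits without each ΔK14 tumor library at edgeR adjusted p-values of 0.0556 to 0.115. The treated libraries that held Fgf5 were rich in hair markers: the 7 inner root sheath markers summed to 959 to 1652 CPM in treated fl/fl skin and 474 to 1197 in treated ΔK14 skin, with replicate 3, the library almost without Fgf5, the lowest. In tumors they summed to 18.4 to 81.0 CPM. The 9 hair matrix and shaft markers found summed to 188 to 492 CPM in treated and 7.63 to 55.7 CPM in tumor libraries. For these the lowest treated library was ΔK14 replicate 2 (188 CPM), which held Fgf5 at 5.63 CPM, and replicate 3 was at 196 CPM. The part of these cells in the fall of Fgf5 was not tested. In sorted bulk cells, fewer cells of a type and less RNA per cell cannot be told apart.

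The split within mock skin followed the hair markers. Mock replicate 1 of both genotypes, with Fgf5 at 21.0 and 16.4 CPM, held the high inner root sheath sums given above. The same 2 libraries had lower sums of 6 bulge and outer root sheath markers, at 447 and 496 CPM. The other 3 mock libraries, with Fgf5 at 0, held 1692 to 2644, most of it Krt15. Single markers of that list differed in direction. Krt15 was lower, at 264 and 281 CPM against 1501 to 2477, as was Nfatc1, at 8.30 and 10.04 against 55.6 to 90.2. Lgr5 (38.9 and 43.9 against 18.3 to 20.5) and Lhx2 (54.4 and 54.7 against 10.2 to 17.1) were higher, and Cd34 and Sox9 overlapped. Basal marker sums were also lower in mock replicate 1 of both genotypes (3207 and 3221 CPM against 14915 to 18194), as were suprabasal ones (699 and 559 against 6149 to 7625). Proliferation marker sums were higher (1361 and 1371 against 305 to 719). Other members moved the opposite way in those 2 libraries. Fgf13 was at 0.775 and 0 CPM against 7.75 to 11.7 in the other 3, and Fgf11 at 0.443 and 0.264 CPM against 2.82 to 4.30. Fgf1 (0.332 and 0 CPM against 2.11 to 3.17), Fgfr2 (240 and 231 against 311 to 462) and Fgfr1 (35.4 and 33.8 against 41.5 to 53.7) split the same way. Fgf18, Fgf22, Fgfr3 and Fgfr4 overlapped. How many of all genes split in this way was not counted. The fitted change of Fgf5 in treated over mock skin was accordingly imprecise, at 0.97 (SE 1.61) in fl/fl and -0.37 (SE 1.57) in ΔK14 mice on the log2 scale, and neither was called. Without mock fl/fl replicate 1, Fgf5 was called higher in treated fl/fl skin (edgeR adjusted p = 0.00349), against 2 libraries at 0, and 15.1% of all genes were called, where the full set of libraries gave none.

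**Figure D2:**
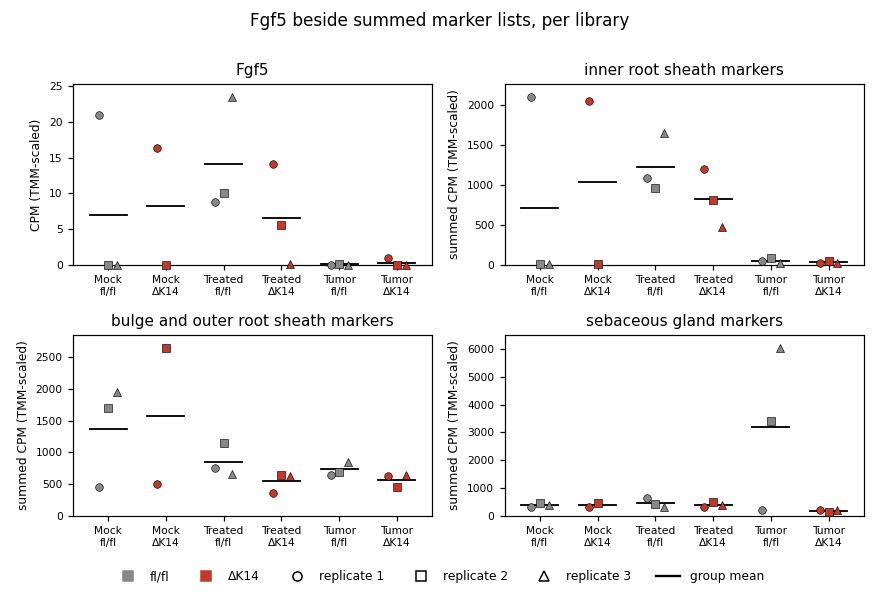
Fgf5 in CPM and the summed CPM of marker lists for inner root sheath (7 genes), bulge and outer root sheath (6 genes) and sebaceous gland (4 genes), per library, with lines at group means. Mock replicate 1 of both genotypes is high for Fgf5 and for inner root sheath markers (2099 and 2051). It is low for the bulge sum, through Krt15 and Nfatc1 and not through Lgr5 or Lhx2. Sebaceous markers reach 3411 and 6042 only in fl/fl tumor replicates 2 and 3.

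Fgf18, the telogen ligand of the bulge, was near the limit of detection, with 100 counts over all 17 libraries, at least 1 in each. It ran from 0.178 to 2.30 CPM in skin and from 0.476 to 2.08 CPM in tumors. It passed the count filter in none of the 12 comparisons and was not tested. By summed counts, scaled by total counts without TMM factors, mock fl/fl skin (26 counts in 3 libraries) and mock ΔK14 skin (3 counts in 2) differed by a ratio of 2.58. The 95% counting interval was 0.790 to 13.3, so no difference was detectable at this depth.

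Fgf22, a ligand of epidermis and inner root sheath, was the steadiest ligand, present in every library. It was at 3.76, 5.94 and 3.38 CPM in mock fl/fl skin and at 7.40 and 5.99 CPM in mock ΔK14 skin. Treated skin held 3.98, 5.38 and 3.02 CPM in fl/fl and 5.16, 2.62 and 4.70 CPM in ΔK14 mice. Tumors held 7.62, 3.14 and 2.54 CPM in fl/fl and 5.35, 3.45 and 4.72 CPM in ΔK14 mice. These ranges overlap throughout, apart from mock ΔK14 skin, whose 2 libraries were above the mock fl/fl ones and above both ΔK14 groups with DMBA/TPA. Fgf22 was tested in all 12 comparisons and called in none, with fitted log2 changes from -0.75 (treated over mock ΔK14 skin, SE 0.44) to 0.67 (mock ΔK14 over mock fl/fl skin, SE 0.45). Its exons overlap those of Rnf126 on the other strand by 82 bases, and use of strand in counting is not given in the sources used here.

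Fgf1, the ligand that all FGF receptors bind, was low and uneven. Mock fl/fl skin had 0.332, 2.11 and 2.66 CPM and mock ΔK14 skin 0 and 3.17 CPM. Treated fl/fl skin had 6.41, 3.01 and 1.84 CPM and treated ΔK14 skin 0.890, 1.05 and 2.96 CPM. Tumors had 1.43, 5.96 and 8.27 CPM in fl/fl and 0, 1.82 and 1.70 CPM in ΔK14 mice. The high tumor values were those of the 2 fl/fl libraries with high sebaceous markers, and the third fl/fl tumor library rested on 3 counts. Fgf1 was called in no comparison. Its fitted change was 1.68 on the log2 scale (SE 0.82, edgeR adjusted p = 0.24) in fl/fl tumors over mock skin. Between the tumor groups it had too few counts to be tested. Of 7 alternatives that could test it, 2 called it lower in ΔK14 tumors, one with no count filter (-2.12, edgeR adjusted p = 0.0144) and one described with the genotype comparisons. The others did not, with adjusted p = 0.167 in DESeq2, 0.332 in the single edgeR fit and 0.385 to 0.663 in edgeR fits without each ΔK14 tumor library.

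The intracellular members Fgf13 and Fgf11 were highest in mock skin outside replicate 1. Fgf13 was at 0.775, 11.7 and 10.04 CPM in mock fl/fl, 0 and 7.75 in mock ΔK14, 3.32, 6.03 and 1.05 in treated fl/fl, and 1.96, 1.83 and 4.87 in treated ΔK14 libraries. In tumors it was at 0, 5.02 and 5.09 CPM in fl/fl and at 0.891, 1.63 and 0 CPM in ΔK14 mice, so that every ΔK14 tumor library was under every treated ΔK14 library. That difference missed the adjusted threshold (log2 fold change -1.79, SE 0.77, edgeR adjusted p = 0.0988) and passed it in 1 of 11 alternatives, with no count filter (-1.74, edgeR adjusted p = 0.0192). Against mock ΔK14 skin Fgf13 was called lower in 2 of the 4 alternatives that could test it, without mock ΔK14 replicate 1 (-3.21, edgeR adjusted p = 0.0299) or without the count filter (-2.07, edgeR adjusted p = 0.0404), and not in the single fit (edgeR adjusted p = 0.313) or with DESeq2 (adjusted p = 0.441). Fgf11 stayed at or under 4.30 CPM, with 168 counts in all, was at 0 in fl/fl tumor replicate 1 and in ΔK14 tumor replicate 3, and was called in no comparison.

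Of the receptors, Fgfr2, the main FGF receptor of keratinocytes, was lower in tumors of both genotypes. It was at 240, 406 and 462 CPM in mock fl/fl and at 231 and 311 CPM in mock ΔK14 skin. Treated skin was even, at 241, 245 and 280 CPM in fl/fl and 248, 225 and 241 CPM in ΔK14 mice. Tumors were at 131, 131 and 100 CPM in fl/fl and 189, 164 and 180 CPM in ΔK14 mice. Each of the 6 tumor libraries was under each of the 11 skin libraries. Against treated skin the fall was -1.09 (SE 0.18, edgeR adjusted p = 0.00632) on the log2 scale in fl/fl mice, which was called, and -0.50 (SE 0.16, edgeR adjusted p = 0.0388) in ΔK14 mice, a fold below the threshold of 2. Against mock skin it was -1.60 (SE 0.30, edgeR adjusted p = 0.034) in fl/fl and -0.73 (SE 0.25, edgeR adjusted p = 0.094) in ΔK14 mice.

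The fl/fl call against mock skin was fragile. It was lost on leaving out any library but mock fl/fl replicate 1, with edgeR adjusted p-values of 0.0533 to 0.183, and held without that library (-1.81, edgeR adjusted p = 0.00306). It was also lost with the replicate number as a block (-1.57, edgeR adjusted p = 0.0831). With all libraries kept, the call held with DESeq2 (adjusted p = 0.000352) and in the single fit (edgeR adjusted p = 0.000481). It also held with no count filter (edgeR adjusted p = 0.00102) and with RLE scaling (edgeR adjusted p = 0.0369). The fitted fall kept its direction throughout, between -1.81 and -1.45. Against treated skin the call was lost only without tumor fl/fl replicate 3, where the fall was -0.97 (edgeR adjusted p = 0.0353) and so just under 2-fold. The annotated Fgfr2 gene reaches chr7:130162451-133123350, through a long transcript that shares 314 exonic bases with Ctbp2 on the same strand. Gene counts do not separate the epithelial and mesenchymal splice forms of the receptor.

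**Figure D3:**
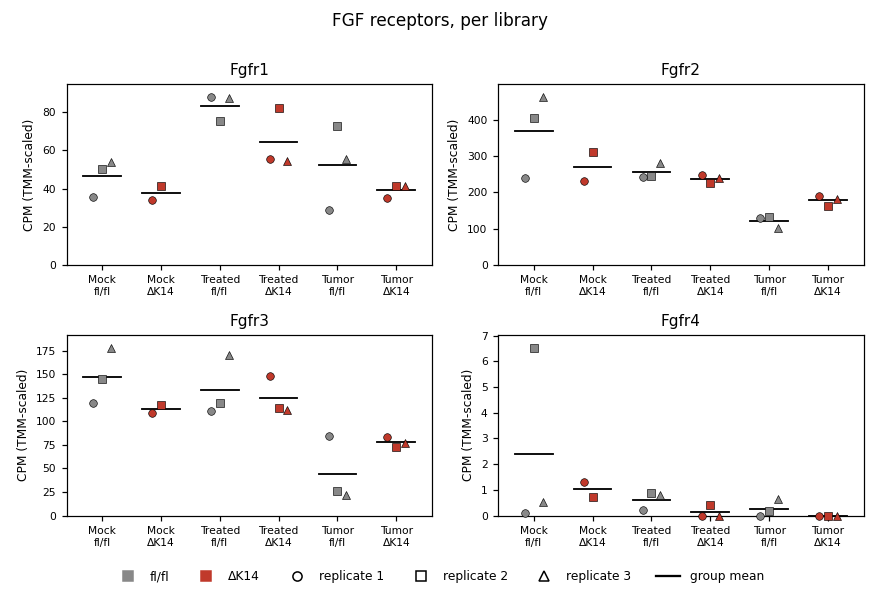
Levels of Fgfr1, Fgfr2, Fgfr3 and Fgfr4 in each library, in CPM on TMM-scaled library sizes, with lines at group means and an axis from 0 in each panel. All tumor libraries lie at or under 189 CPM for Fgfr2, where skin starts at 225, and fl/fl tumor replicates 2 and 3 are the lowest for Fgfr3.

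Fgfr3, a receptor of differentiating keratinocytes and the member with the TTP heptamer printed above, was also lower in tumors, but not evenly. Skin libraries ran from 109 to 178 CPM with a median of 119. Tumors were at 84.8, 26.4 and 21.6 CPM in fl/fl and at 83.6, 73.0 and 76.8 CPM in ΔK14 mice. All 6 were under all skin libraries, and within fl/fl tumors replicate 1 resembled the ΔK14 tumors while replicates 2 and 3 were lower. The fall against treated skin was -0.77 on the log2 scale in ΔK14 mice (SE 0.19, edgeR adjusted p = 0.0131), again under 2-fold, and -1.62 in fl/fl mice (SE 0.51, edgeR adjusted p = 0.0521). Against mock skin it was -0.66 (SE 0.23, edgeR adjusted p = 0.0935) in ΔK14 and -1.72 (SE 0.54, edgeR adjusted p = 0.0983) in fl/fl mice. Without tumor fl/fl replicate 1 both fl/fl falls were called, at -2.48 (edgeR adjusted p = 0.000257) against treated and -2.61 (edgeR adjusted p = 0.015) against mock skin. Each was called in 4 of 11 alternatives, over which the adjusted p ran from 4.93e-07 to 0.152 against treated and from 0.00157 to 0.285 against mock skin (edgeR and DESeq2). The 2 low libraries were those with high sebaceous markers, and Krt14, a basal keratin, was at 3977 and 4040 CPM in them against 14899 in replicate 1 and 10944 to 11471 in ΔK14 tumors. The part of cell makeup in the Fgfr3 level was not tested. Exons of Fgfr3 overlap G630022F23Rik on the other strand by 998 bases.

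Fgfr1, better known from mesenchyme, had its highest levels in treated skin. It was at 35.4, 50.01 and 53.7 CPM in mock fl/fl and 33.8 and 41.5 CPM in mock ΔK14 skin. Treated skin held 87.8, 75.3 and 87.3 CPM in fl/fl and 55.7, 82.5 and 54.6 CPM in ΔK14 mice, above every mock library of the same genotype. The fitted log2 difference was 0.88 (SE 0.20, unadjusted p = 0.00308 and adjusted p = 0.482, edgeR) in fl/fl and 0.72 (SE 0.31, unadjusted p = 0.0574 and adjusted p = 1, edgeR) in ΔK14 mice, so neither was called. Fibroblast markers summed to 370 to 948 CPM in treated and 537 to 1637 CPM in mock skin. Their sums were lower in tumors, at 80.5 to 203 CPM in fl/fl and 30.2 to 387 CPM in ΔK14 mice. Only Dcn among them was lower in every tumor than in every skin library. The part of fibroblasts in the Fgfr1 level was not tested. Tumors were at 28.6, 72.8 and 55.3 CPM in fl/fl and 35.2, 41.2 and 41.5 CPM in ΔK14 mice, under treated skin of the same genotype in every library. The fall against treated skin was -0.80 on the log2 scale (SE 0.23, edgeR adjusted p = 0.0243) in ΔK14 and -0.68 (SE 0.30, edgeR adjusted p = 0.127) in fl/fl mice.

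Fgfr4 was barely measured, with 65 counts in all, 34 of them in mock fl/fl replicate 2 (6.51 CPM). Elsewhere it stayed at or under 1.32 CPM, and it was at 0 in all 3 ΔK14 tumor libraries, in fl/fl tumor replicate 1 and in treated ΔK14 replicates 1 and 3. It passed the filter in no comparison.

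Counted together, few members were called, and a call here means an adjusted p under 0.05 and a fold over 2. In fl/fl tumors against treated skin 2 of 8 tested members were called, both lower, where 18% of all tested genes were called. Of these members, Fgf5 passed the count filter through treated skin alone, so it could only be called lower. Against mock fl/fl skin 1 of 7 was called lower, with 4.11% of all genes called. In ΔK14 tumors 0 of 5 were called against treated skin (26% of all genes) and 0 of 4 against mock skin (14.3% of all genes). An unadjusted p under 0.05 (edgeR) was reached by 4 members against treated skin, beside 47.4% of all genes. Against mock skin 2 members reached it, beside 34.4% of all genes. By adjusted p alone 3 of 5 were lower in ΔK14 tumors than in treated skin, the receptors Fgfr1, Fgfr2 and Fgfr3, where 36.8% of all genes passed. Treated over mock skin gave 0 of 8 calls in each genotype, with 0% of all genes called in fl/fl and 0% in ΔK14 mice. There 1 member, Fgfr1, had an unadjusted p under 0.05 (edgeR) in fl/fl mice, beside 5.5% of all genes. No member had one in ΔK14 mice, beside 4.8% of all genes. With DESeq2 the counts were 3 and 2 in the fl/fl tumor comparisons, with Fgfr3 added to both, where DESeq2 called 10.4% and 7.02% of all genes. It called 0 members in the other 4, with 12.7% of all genes in ΔK14 tumors over treated skin, 8.7% over mock skin, and 0.359% and 0.207% in treated over mock skin of fl/fl and ΔK14 mice. The comparisons against tumor share the tumor libraries, so their values are not independent of each other.

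**Figure D4:**
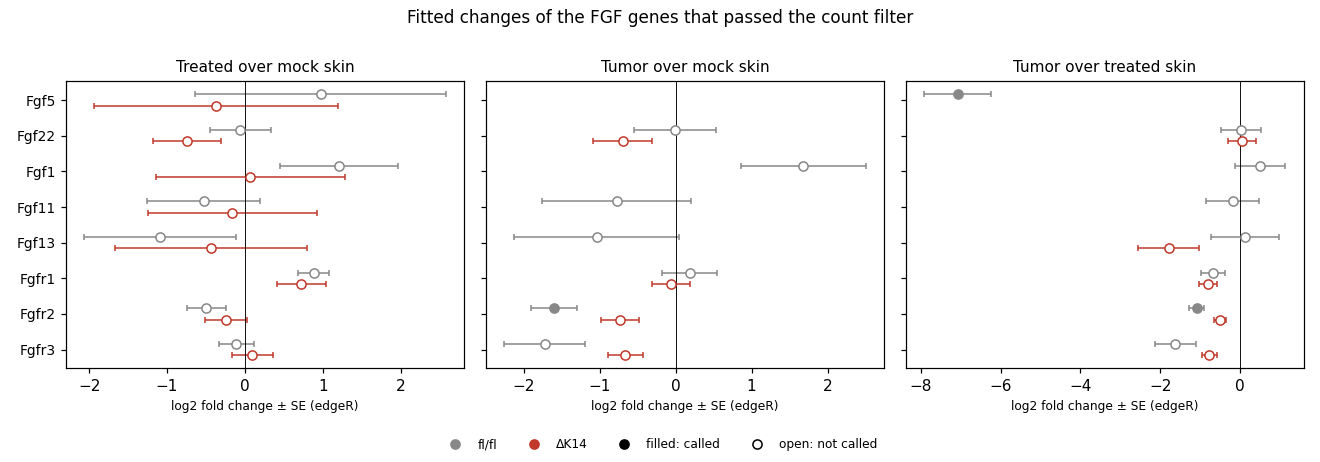
Fitted log2 fold changes (edgeR) for the members that passed the count filter, gray for fl/fl and red for ΔK14 mice. The panels are treated over mock skin, tumor over mock skin and tumor over treated skin. Bars are SE derived from the F statistic. Filled points are called, which applies to Fgfr2 in fl/fl tumors against both skins and to Fgf5 in fl/fl tumors against treated skin, and the scale of the last panel is wider because of Fgf5 at -7.08.

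No member passed the thresholds between genotypes at any stage. Between ΔK14 and fl/fl libraries, 0 of 8 tested members were called in mock skin (0% of all genes), 0 of 8 in treated skin (0.00616% of all genes) and 0 of 4 in tumors (0.0284% of all genes). No member had an unadjusted p under 0.05 (edgeR) in these 3 comparisons, beside 1.59%, 5.55% and 14% of all genes in the same order. DESeq2 called no member, and 0.00917%, 0.113% and 1.38% of all genes. For Fgfr2 in tumors all 3 ΔK14 libraries (164 to 189 CPM) were above all 3 fl/fl libraries (100 to 131 CPM), with a log2 difference of 0.41 (SE 0.19, edgeR adjusted p = 0.378). Fgfr3 was 0.68 higher (SE 0.48, edgeR adjusted p = 0.55) in ΔK14 tumors. The counts in tumors depended on the shallowest library. Without tumor fl/fl replicate 1, 16.9% of all genes were called between the tumor groups, and 3 members among them: Fgfr3 higher in ΔK14 tumors (1.59, edgeR adjusted p = 0.000642), and Fgf13 (-2.64, edgeR adjusted p = 0.0242) and Fgf1 (-2.61, edgeR adjusted p = 0.0194) lower. The 2 fl/fl libraries that remain are those with high sebaceous markers.

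The difference between genotypes in the change between stages was tested as an interaction, the ΔK14 change minus the fl/fl change. It was called for 0 of 8 members in each test. Of all genes, 0% were called from mock to treated skin, 0% from mock skin to tumor and 0.0118% from treated skin to tumor. DESeq2 called no member, and in the same order 0%, 0.0833% and 0.58% of all genes. In the tests that end in tumor, 13.2% (from treated skin) and 8.18% (from mock skin) of all genes had an unadjusted p under 0.05 (edgeR). Among the members Fgfr2 alone did, in both of these tests. Its fall was smaller in ΔK14 mice by 0.60 (SE 0.22, unadjusted p = 0.0186, edgeR adjusted p = 0.292) from treated skin and by 0.87 (SE 0.39, unadjusted p = 0.0477, edgeR adjusted p = 0.607) from mock skin. Fgfr3 had an interaction of 0.87 from treated skin to tumor (SE 0.57, edgeR adjusted p = 0.543), which was called at 1.75 (edgeR adjusted p = 0.00587) without tumor fl/fl replicate 1.

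Other genes of the pathway were counted from 4 lists. Of the 16 other FGF family genes, Fgf12 and Fgf14 among them, only Fgf2, a ligand of broad receptor range, had enough counts to be tested. It was at 26.7, 4.98 and 2.87 CPM in mock fl/fl and 28.3 and 1.76 CPM in mock ΔK14 skin, high in the same replicate 1 libraries as Fgf5. Treated skin held 7.96 to 28.8 CPM, and tumors 3.81, 21.2 and 10.8 CPM in fl/fl and 2.23, 5.08 and 2.45 CPM in ΔK14 mice. Fgf2 was called lower in ΔK14 tumors than in treated ΔK14 skin (-2.89, SE 0.40, edgeR adjusted p = 0.00145), where every tumor library was under every treated one, and in no other comparison. The interaction missed the threshold (-2.61, SE 0.73, edgeR adjusted p = 0.208).

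Of 13 feedback inhibitors and targets, 11 were tested, and the Sprouty inhibitors of receptor signaling moved in opposite directions. Spry1 ran from 29.2 to 132 CPM in skin and from 9.05 to 13.4 CPM in tumors. It was called lower in tumors in all 4 comparisons with skin, by -2.93 and -1.95 in fl/fl and -3.25 and -1.999 in ΔK14 mice against mock and treated skin in turn (edgeR adjusted p from 0.00191 to 0.00954). Spry2 ran from 24.3 to 53.6 CPM in skin and from 101 to 267 CPM in tumors, and was called higher in all 4, by 1.45 and 2.11 in fl/fl and 1.86 and 2.57 in ΔK14 mice (edgeR adjusted p from 0.000981 to 0.0297). Neither gene overlapped between skin and tumor. Il17rd, which encodes the inhibitor SEF, was called lower in ΔK14 tumors than in treated skin (-1.03, SE 0.35, edgeR adjusted p = 0.0463). No other gene of the list was called. In the 4 tumor comparisons 4.11% to 26% of all tested genes were called. Dusp6, a phosphatase that switches off ERK, was at 362 to 646 CPM in tumors, 166 to 484 CPM in treated skin and 45.4 to 451 CPM in mock skin, with mock replicate 1 again the high library. The median log2 change of the list in the 4 tumor comparisons was 0.01 to 0.39, beside -0.06 to -0.03 over all tested genes.

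**Figure D5:**
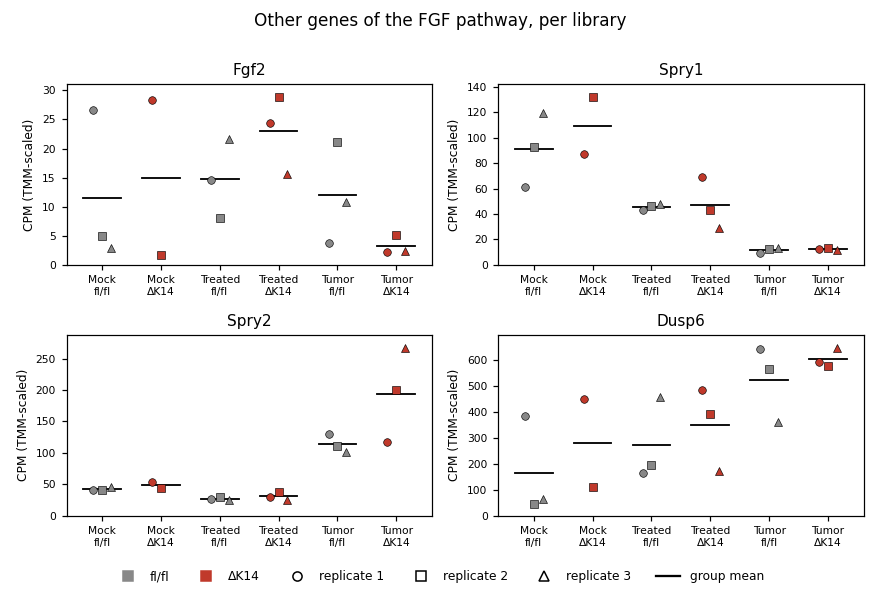
Levels of the ligand Fgf2 and of the feedback inhibitors Spry1, Spry2 and Dusp6 in each library, in CPM on TMM-scaled library sizes with lines at group means. Spry1 is at or under 13.4 CPM in every tumor and at or above 29.2 CPM in every skin library, while Spry2 is at or above 101 CPM in tumors and at or under 53.6 CPM in skin.

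Of 11 coreceptors and FGF binders, 9 were tested. Sdc1, a heparan sulfate proteoglycan, was higher in tumors than in mock skin of fl/fl (1.14, SE 0.24, edgeR adjusted p = 0.0481) and ΔK14 mice (1.23, SE 0.31, edgeR adjusted p = 0.0442). Against treated skin, Fgfbp1, which releases FGFs from the matrix, was higher in tumors of fl/fl (1.56, SE 0.40, edgeR adjusted p = 0.0282) and ΔK14 mice (2.33, SE 0.40, edgeR adjusted p = 0.00313). Flrt2, a membrane protein that binds FGF receptors, was higher in ΔK14 tumors against both skins (2.39 over mock and 1.97 over treated skin, edgeR adjusted p = 0.00858 and 0.00249). Fgfrl1, a receptor without a kinase domain, was higher in them than in mock skin (2.08, SE 0.47, edgeR adjusted p = 0.0353), and Gpc1, a glypican, higher than in treated skin (1.23, SE 0.27, edgeR adjusted p = 0.00918). In all, this list had 1 gene higher and 0 lower in fl/fl tumors over mock skin, 1 and 1 over treated skin, 3 and 0 in ΔK14 tumors over mock skin and 4 and 0 over treated skin. In the same order 4.11%, 18%, 14.3% and 26% of all tested genes were called. The gene that was lower was Hspg2, perlecan, in fl/fl tumors (-1.82, SE 0.23, edgeR adjusted p = 0.00282). The median log2 change of the list was 0.56, 0.31, 1.23 and 0.95 in that order, beside -0.05, -0.03, -0.06 and -0.03 over all tested genes. Of 8 receptor adaptors, 7 were tested and 1 was called, Grb2, higher in ΔK14 tumors than in treated skin (1.11, SE 0.24, edgeR adjusted p = 0.00838). In that comparison 26% of all tested genes were called. No gene of the 4 lists was called between genotypes or between treated and mock skin, where at most 0.0284% of all tested genes were called.

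The genes most like each member were ranked by Pearson's r of log2 CPM, as a description over libraries that share groups and cell makeup. Over the 17 libraries Fgf5 was closest to Krtap7-1 (r = 0.956), B3gnt5 (0.953) and Krt75 (0.948), and over the 11 skin libraries alone to Fam19a5 (0.981), Nxpe4 (0.978) and Krtap11-1 (0.975). Fgfr2 was closest to Gga2 (0.971), Thra (0.961) and Mcc (0.96) over all libraries, Fgfr3 to Dlg3 (0.95), Slc12a4 (0.945) and Plekhh3 (0.942), and Fgfr1 to Gm14817 (0.907), Adamts9 (0.901) and Sh3tc2 (0.896). Among skin libraries alone none of these receptor neighbors remained in the top 3 except Gm14817 for Fgfr1 (0.952). Fgf13 was closest to Ifi27 (0.917) over all and to Rsu1 (0.976) over skin libraries, and Fgf11 to AU041133 (0.92) and Lax1 (0.975). Fgf1 was closest to Clmp (0.856) over all libraries and Fgf22 to Gm24865 (0.859).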

How the data were processed

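RNA from sorted epidermal cells was sequenced by the authors on an Illumina HiSeq from libraries of the Ovation SoLo kit. What the authors deposited was a table of whole-number read counts by gene, not normalized. The submitters' processing notes name Trimmomatic 0.36, STAR 2.5.3, HTSeq 0.9.1, DESeq2 and the build mm10, with no order or role, and use of strand is not given in the sources used here. Groups were taken from the labels. The members and gene lists were chosen with earlier results of these data known.

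Tests used edgeR 4.0.16 on limma 3.58.1 under R 4.3.3, and DESeq2 1.42.0 as an alternative. Genes were filtered with filterByExpr (minimum count 10) and scaled with TMM, and only the libraries of the groups compared entered each fit. Differences were tested with the two-sided quasi-likelihood F test, with Benjamini-Hochberg adjustment over all genes tested, and called at an adjusted p under 0.05 with a fold over 2. SE is the fitted log2 fold change, without its sign, divided by the square root of the F statistic. It thus restates the test, and where counts are few it can be smaller than counting error. Log2 CPM used a prior count of 2. CPM per kilobase used the union of exons in GENCODE M21, on GRCm38, the assembly behind mm10. Named genes were all 10 members, up to 3 called genes of smallest p per pathway list and comparison, and the 3 genes with the highest r to each member that passed the filter over the 6 groups. Fgf2 and Dusp6 were also described in full, which was decided after their values were seen. Marker lists were summed in CPM without a test. One marker of hair matrix and shaft and 1 of leukocytes had no single row under their symbol. PCR duplicates are not independent molecules, so counting intervals cover counting error only. The fits were tested on simulated data before use. The alternatives were DESeq2, RLE scaling, no filter on low counts, a single fit of all libraries, a replicate block, counting the 2 identical columns as 2 libraries, and leaving out each library in turn.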

Additional observations from a re-analysis of the deposited data

How the results depend on the processing

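The count of members called was recomputed under every alternative. With no filter on low counts it was 1 (from 0) between genotypes in tumors, where 4.27% of all genes were called, 3 (from 1) in fl/fl tumors over mock skin (7.64%), 3 (from 0) in ΔK14 tumors over mock skin (13.1%) and 2 (from 0) over treated skin (16.3%). In fl/fl tumors over mock skin it was 2 with DESeq2 (7.02%), 2 in a single fit of all libraries (17.6%) and 0 with the replicate block (1.59%). On leaving out each library in turn the count ranged from 0 to 3 between genotypes in tumors (16.9% of all genes at the highest count), 0 to 1 in treated over mock fl/fl skin (15.1%), 0 to 1 in fl/fl tumors over mock skin (21% without mock replicate 1 and 3.65% without tumor replicate 1), 1 to 3 over treated fl/fl skin (24.3%), 0 to 1 in ΔK14 tumors over mock skin (28.1% and 22% without mock replicates 1 and 2) and over treated skin (29.2%), and 0 to 1 for the interaction from treated skin to tumor (7.53%). In the 2 comparisons with a reported count above 0, 9 of 22 alternatives moved it by over 1.5 times, 8 of them in fl/fl tumors over mock skin. Elsewhere the reported count was 0, which 9 of 128 alternatives moved. No called member changed direction. The cause of each shift was not tested. Fits that left a group with 1 library assumed that it varied like the others. The replicate block changed the count of members in fl/fl tumors over mock skin only, and raised the genes called between genotypes in mock skin from 0 to 110 with no member among them. Replicate numbers are not stated to mark shared mice or days. Deviations of same-numbered libraries correlated at -0.546 to 0.782 (median 0.053, 14 of 40 pairs over 0.1). They were high between the mock groups (0.782 and 0.569) and over 0.1 in all 3 pairs of mock fl/fl with treated ΔK14 libraries, but in none of the other pairs of groups with 3 shared numbers, so the numbers were not taken to pair the libraries. Members under about 1 CPM, Fgf18 and Fgfr4, were limited by depth.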
